A study of Mus musculus with 16 samples.

Results

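The messenger RNA levels of 10 genes that mark astroglia and neural stem cells were compared between neural stem/progenitor cells (NSPCs) carrying a *Dbx2* transgene and NSPCs carrying a control *GFP* transgene. The genes were *Gfap*, *Aqp4*, *Slc1a2*, *Aldoc*, *Glul*, *Gja1*, *Slc1a3*, *Fabp7*, *Nes* and *Vim*. They were taken by symbol from a table of 30386 genes, in which each of them had 1 row. *Dbx2* encodes a homeodomain transcription factor. The NSPCs came from the subventricular zone (SVZ), the germinal layer lining the lateral ventricles, of C57BL/6 J/Babr mice aged 3 months. The control *GFP*-NSPCs (n = 8) carried the plasmid *pTP6-hrGFP*, and the *Dbx2*-NSPCs (n = 8) carried *pTP6-Dbx2*. Both kinds of line expressed their transgene constitutively, were kept under puromycin and were grown as bulk, non-adherent cultures with EGF and FGF2. No sample was thus taken directly from the brain. The number of clones in a line is not given in the sources used here. The study used 2 pairs of lines with 4 experiments each. The sample labels number the replicates from 1 to 8 in each group and do not name the line, and the comparison was therefore made over all samples and again within replicates 1 to 4 and within replicates 5 to 8.

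Adult SVZ stem cells are themselves astroglia-like, and many of the genes used to mark astrocytes are also active in them. Mature astrocytes take up synaptic glutamate through the transporters encoded by *Slc1a2* and *Slc1a3*, turn it into glutamine with the enzyme encoded by *Glul*, and are coupled to each other by gap junctions made of connexin 43, the product of *Gja1*. Nestin and vimentin are intermediate filament proteins of neural progenitors, whereas the filament protein encoded by *Gfap* marks astrocytes and the quiescent stem cells of the SVZ. *Fabp7*, also called brain lipid-binding protein, marks radial glia and their descendants.

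Levels are given in CPM, that is, reads of a gene scaled to the depth of the library. The 16 libraries held between 1803928 and 3293285 reads, and a single read corresponded to 0.304 to 0.554 CPM. The limit of detection was set at 3 reads, which corresponded to 0.911 to 1.66 CPM. All 10 genes passed the filter of more than 1 CPM in at least 4 libraries, as did 12533 genes in total. *Dbx2* itself was at 89.3 to 171 CPM in *GFP*-NSPC replicates 1 to 4 and at 136 to 232 CPM in *Dbx2*-NSPC replicates 1 to 4, which overlapped (log2 fold change 0.54, adjusted p = 0.0891, limma). In replicates 5 to 8 it was at 30.7 to 39.5 CPM in *GFP*-NSPCs and at 114 to 155 CPM in *Dbx2*-NSPCs (log2 fold change 1.99, adjusted p = 5.67e-08, limma). *GFP*-NSPC replicate 1 stood apart from the other control libraries of its set: it was the highest of the 4 for 8 of the 10 marker genes and the lowest for *Nes*, and values without it are given where they matter.

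In all samples together, 2 of the 10 genes were higher in *Dbx2*-NSPCs (*Gfap* and *Aldoc*) and 3 were lower (*Gja1*, *Slc1a3* and *Fabp7*) at an adjusted p under 0.05. Of all tested genes, 8.03% were called higher and 7.78% lower. The same 5 genes were called in the same direction in replicates 1 to 4, where 8.19% of all genes were called higher and 7.37% lower. In replicates 5 to 8, 9 of the 10 were called, 4 higher (*Gfap*, *Aldoc*, *Slc1a2* and *Aqp4*) and 5 lower (*Gja1*, *Slc1a3*, *Fabp7*, *Nes* and *Glul*), against 11.5% and 11.7% of all genes. Thus 5 marker genes were called in both sets in the same direction and none in opposite directions, while 6.49% and 1.47% of all genes did so. The median log2 fold change of the 10 genes over all samples was -0.14, and that of all tested genes was -0.02. In bulk RNA, fewer cells of a type and less RNA per cell cannot be told apart, and this applies to every result below.

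**Figure D1:**
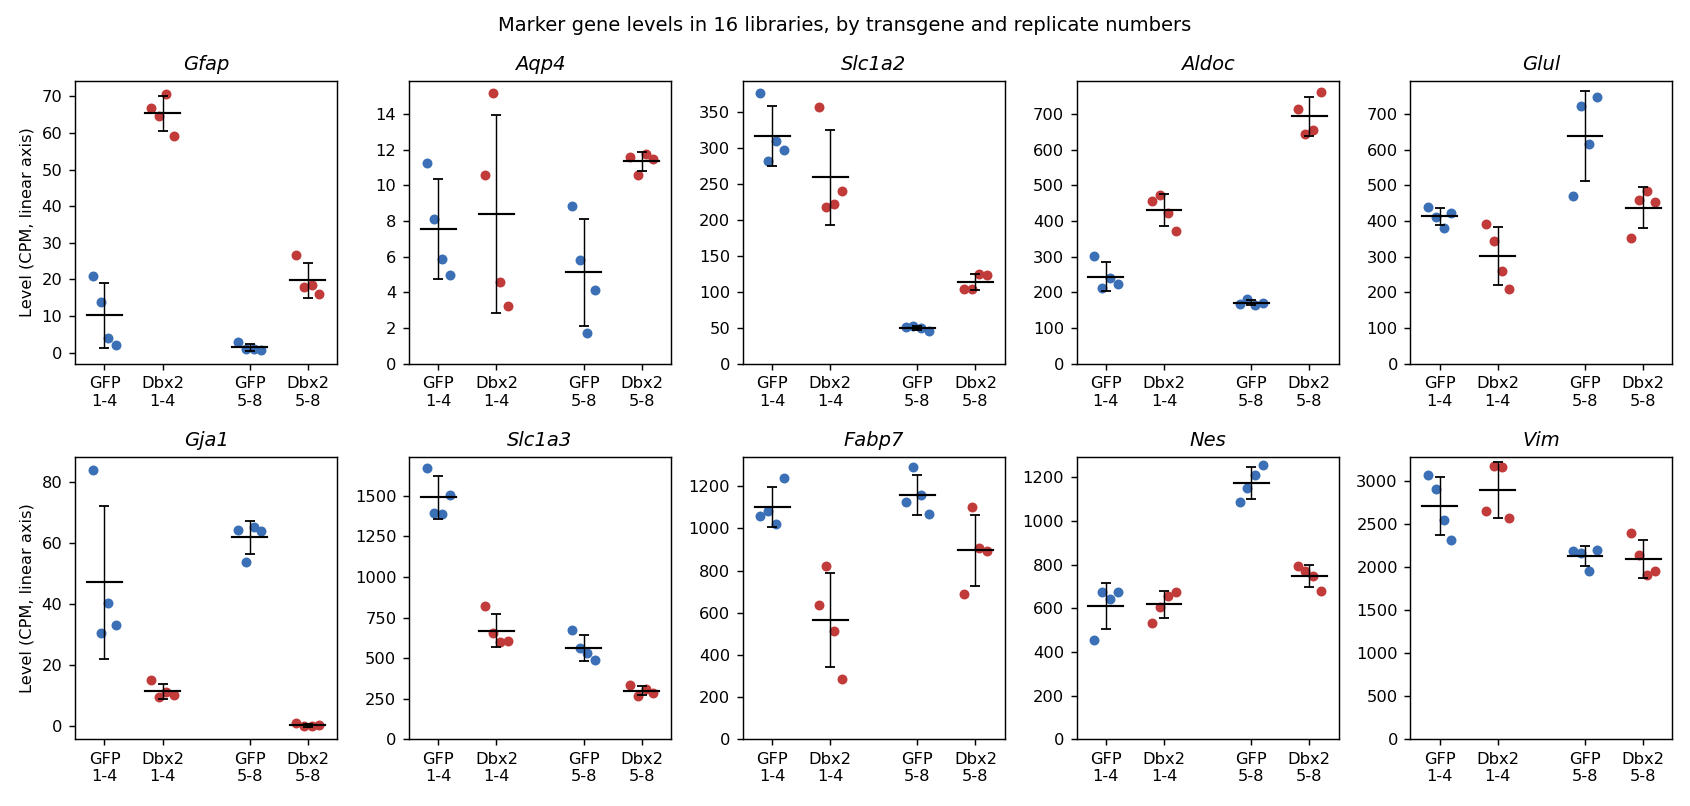
Level of each marker gene in CPM (vertical axes, linear, each with its own scale) in the 16 libraries, with *GFP*-NSPCs in blue and *Dbx2*-NSPCs in red, split into replicates 1 to 4 and 5 to 8; horizontal lines are means and bars are SD of 4 libraries. *Gfap* and *Aldoc* were higher and *Gja1* and *Slc1a3* lower in *Dbx2*-NSPCs within both sets, while *Slc1a2* and *Nes* separated only in replicates 5 to 8.

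The upstream sequences of 3 of the genes that were called in both sets are shown first, because they place the start sites of a filament, a gap junction and a transporter gene that moved in *Dbx2*-NSPCs. Each is the 250 bases before the RefSeq start site (assembly GRCm38.p6), written along the gene's own strand. Capitals mark a match to TTCNNNGAA, the palindrome bound by STAT factors, which astroglial genes are known to respond to. *Gfap* lies on the minus strand (chr11:102897201-102897450), *Gja1* on the plus strand (chr10:56377050-56377299) and *Slc1a3* on the minus strand (chr15:8710808-8711057).
Gfap: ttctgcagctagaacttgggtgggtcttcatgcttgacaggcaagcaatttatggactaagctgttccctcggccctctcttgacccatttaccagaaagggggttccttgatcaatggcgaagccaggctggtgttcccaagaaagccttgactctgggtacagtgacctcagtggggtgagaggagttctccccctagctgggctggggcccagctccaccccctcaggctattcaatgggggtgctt
Gja1: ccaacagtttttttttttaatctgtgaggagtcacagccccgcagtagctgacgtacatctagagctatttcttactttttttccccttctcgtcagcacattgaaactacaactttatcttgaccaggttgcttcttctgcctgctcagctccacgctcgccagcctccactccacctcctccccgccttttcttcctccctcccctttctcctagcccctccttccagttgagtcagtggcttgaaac
Slc1a3: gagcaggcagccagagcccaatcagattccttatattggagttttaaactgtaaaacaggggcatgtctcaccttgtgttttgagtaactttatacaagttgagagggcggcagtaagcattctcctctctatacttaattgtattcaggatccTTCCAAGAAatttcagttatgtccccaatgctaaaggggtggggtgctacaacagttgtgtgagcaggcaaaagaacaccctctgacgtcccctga

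The STAT palindrome, which reads the same on both strands, was found in the window of *Slc1a3*, starting 96 bases before its start site, and in neither of the other windows; it was present in 7.02% of 32851 mouse promoter windows of the same length. TAATTA, a core sequence bound by many homeodomain proteins and likewise the same on both strands, was in none of these 3 windows and in 4.84% of all windows. TTGGCA, the half-site of nuclear factor I proteins, was searched on both strands, was absent from the 3 windows and was found in 12.3% of all windows. Of the other genes called in both sets, *Fabp7* had no match to any of these motifs, and *Aldoc*, which has 2 RefSeq start sites, had 1 TTGGCA match before the first and 2 matches to the STAT palindrome before the second. These matches describe the letters in short windows only.

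Of the filament genes, *Gfap* (chr11:102887336-102900912, GRCm38, minus strand) was higher in *Dbx2*-NSPCs in both sets. In *GFP*-NSPC replicates 1 to 4 it was at 20.95, 13.76, 3.91 and 2 CPM, and in *Dbx2*-NSPC replicates 1 to 4 at 66.78, 64.65, 70.66 and 59.20 CPM. The controls of replicates 5 to 8 were at 2.77, 0.92, 1.02 and 0.82 CPM and the *Dbx2*-NSPCs at 26.75, 18.02, 18.51 and 15.87 CPM. The groups did not overlap within either set, but the highest control library, replicate 1, was above 3 of the 4 *Dbx2*-NSPC libraries of the other set, so that they overlapped over all samples. The log2 fold change was 3.31 ± 0.55 (SE, n = 8, adjusted p = 0.000354, limma) over all samples, 3.11 ± 0.53 (n = 4, adjusted p = 0.00208, limma) in replicates 1 to 4 and 3.51 ± 0.33 (n = 4, adjusted p = 3.78e-06, limma) in replicates 5 to 8. In replicates 5 to 8, 3 of the 4 control libraries held at most 3 *Gfap* reads, and the 13 reads of that control group against 222 in the *Dbx2*-NSPCs gave a ratio per total reads of 15.8, with an exact 95% interval of 9.08 to 30.2 that covers counting error only. The fold changes of the sets did not differ at the threshold (difference 0.40, 95% interval -0.88 to 1.68, adjusted p = 0.776, limma), and without *GFP*-NSPC replicate 1 the fold change of replicates 1 to 4 was 3.61. The same locus holds the antisense gene *Gm26668*, whose reads cannot be told apart from those of *Gfap* unless strand was used in counting.

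*Vim* (chr2:13573927-13582826, plus strand), the most abundant of the 10 genes in CPM, showed no difference past the threshold in any comparison. It was at 3061, 2900, 2540 and 2314 CPM in *GFP*-NSPC replicates 1 to 4 and at 2651, 3170, 3158 and 2570 CPM in the matching *Dbx2*-NSPCs. The level in replicates 5 to 8 was 2189, 2157, 1957 and 2192 CPM in the controls and 2391, 2132, 1900 and 1956 CPM in the *Dbx2*-NSPCs. The groups overlapped in both sets, and the log2 fold change over all samples was 0.04 with a 95% interval of -0.22 to 0.29 (adjusted p = 0.881, limma).

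*Nes* (chr3:87971078-87980451, plus strand) behaved differently in the sets. In replicates 1 to 4 the controls were at 454, 673, 641 and 675 CPM and the *Dbx2*-NSPCs at 534, 607, 655 and 675 CPM, which overlapped (log2 fold change 0.03 ± 0.13, n = 4, adjusted p = 0.92, limma). The controls of replicates 5 to 8 were at 1086, 1149, 1210 and 1253 CPM and the *Dbx2*-NSPCs at 795, 772, 749 and 677 CPM. All 4 *Dbx2*-NSPC libraries were below all 4 controls there, and the log2 fold change was -0.65 ± 0.07 (n = 4, adjusted p = 2.28e-05, limma). The difference between the fold changes was -0.68 ± 0.16 (adjusted p = 0.00488, limma; 9.44% of all tested genes differed between the sets at the same threshold). The *GFP*-NSPCs themselves differed between the sets in *Nes*, with a mean in replicates 5 to 8 that was 1.92 times that in replicates 1 to 4, whereas this ratio was 1.21 in *Dbx2*-NSPCs.

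*Gja1* (chr10:56377330-56402513, plus strand), the connexin 43 gene, had the most negative fold change of the 10. It was at 84.20, 30.69, 40.40 and 33.32 CPM in *GFP*-NSPC replicates 1 to 4 and at 15.09, 9.71, 11.07 and 10.05 CPM in the matching *Dbx2*-NSPCs. The controls of replicates 5 to 8 were at 64.28, 53.98, 65.23 and 64.15 CPM, and the *Dbx2*-NSPCs at 1.06, 0, 0 and 0.34 CPM. Every *Dbx2*-NSPC library was below every control, which was the case for *Gja1* and, in the other direction, *Aldoc* among the 10 genes and for 3.41% of all tested genes. The log2 fold change was -4.13 ± 0.69 (n = 8, adjusted p = 0.000342, limma) over all samples and -1.89 ± 0.29 (n = 4, adjusted p = 0.00108, limma) in replicates 1 to 4, where it was -1.57 without *GFP*-NSPC replicate 1. In replicates 5 to 8 no *Dbx2*-NSPC library held more than 3 *Gja1* reads, and 639 reads in the 4 controls stood against 4 in the *Dbx2*-NSPCs, a ratio per total reads of 172 with an exact 95% counting interval of 66.9 to 634. The fitted log2 fold change there was -6.36 (adjusted p = 3.07e-08, limma) with 0.5 CPM added before taking logs, -7.85 with 0.1 CPM and -4.78 with 2 CPM. The fold changes of the sets differed (difference -4.47, adjusted p = 1.63e-07, limma), also with 2 CPM added (-3.02, adjusted p = 6.10e-07, limma).

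Of the glutamate transporters, *Slc1a3* (chr15:8634124-8710764, minus strand), which encodes GLAST, was lower in *Dbx2*-NSPCs in both sets. It was at 1669, 1392, 1387 and 1506 CPM in *GFP*-NSPC replicates 1 to 4 and at 820, 653, 600 and 603 CPM in the matching *Dbx2*-NSPCs. The level in replicates 5 to 8 was 670, 562, 529 and 489 CPM in the controls and 333, 269, 311 and 288 CPM in the *Dbx2*-NSPCs. The groups were separate within each set, and 3 of the 4 controls of replicates 5 to 8 were below all *Dbx2*-NSPCs of replicates 1 to 4. The log2 fold change was -1.16 ± 0.12 (n = 4, adjusted p = 6.88e-05, limma) in replicates 1 to 4 and -0.90 ± 0.10 (n = 4, adjusted p = 1.50e-05, limma) in replicates 5 to 8, and the fold changes of the sets did not differ at the threshold (difference 0.26, 95% interval -0.06 to 0.58, adjusted p = 0.354, limma). Over all samples it was -1.03 ± 0.30 (n = 8, adjusted p = 0.0259, limma), a call that was lost when any of 7 single libraries was left out (adjusted p up to 0.0543, limma).

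*Slc1a2* (chr2:102658659-102790784, plus strand), which encodes GLT-1, the main glutamate transporter of mature astrocytes, was higher in *Dbx2*-NSPCs of replicates 5 to 8. In that set it was at 51.53, 51.84, 50.20 and 45.24 CPM in the controls and at 104.19, 104.06, 125.05 and 122.90 CPM in the *Dbx2*-NSPCs (log2 fold change 1.19 ± 0.10, n = 4, adjusted p = 1.47e-06, limma). In replicates 1 to 4 the controls were at 377.08, 282.16, 309.54 and 298.25 CPM and the *Dbx2*-NSPCs at 357.67, 218.82, 221.75 and 240.40 CPM. These overlapped, because *Dbx2*-NSPC replicate 1 was far above the other 3, and the log2 fold change was -0.31 ± 0.15 (n = 4, adjusted p = 0.21, limma). Without that library, singled out after its value was seen, it was -0.47 (adjusted p = 0.0197, limma). In 7 of the 8 fits that left out 1 library the change was not called (adjusted p up to 0.415, limma). The log2 fold changes of the 8 fits were -0.47 to -0.22, opposite in sign to that of replicates 5 to 8. The difference between the sets was 1.495 (95% interval 1.11 to 1.88, adjusted p = 2.67e-06, limma). The control level of *Slc1a2* also differed between the sets, with a mean 6.37 times higher in replicates 1 to 4 than in replicates 5 to 8. The antisense gene *Gm13872* overlaps this locus.

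*Glul* (chr1:153899944-153909723, plus strand), the glutamine synthetase gene, was lower in the *Dbx2*-NSPC than in the *GFP*-NSPC library of the same number for all 8 numbers. The controls were at 439, 411, 380 and 421 CPM in replicates 1 to 4 and at 471, 721, 615 and 748 CPM in replicates 5 to 8. The *Dbx2*-NSPCs were at 393, 344, 260.2 and 209.9 CPM in replicates 1 to 4 and at 353, 460, 483 and 452 CPM in replicates 5 to 8. The groups overlapped by a single library in each set. The log2 fold change was -0.51 ± 0.18 (n = 8, adjusted p = 0.0578, limma) over all samples and passed the threshold when the replicate number was fitted as a block (adjusted p = 0.000898, limma). It also passed with only the set of replicates as a covariate (adjusted p = 0.00215, limma). It was -0.49 ± 0.16 in replicates 1 to 4 (n = 4, adjusted p = 0.0635, and 0.036 with the replicate block, limma) and -0.53 ± 0.13 in replicates 5 to 8 (n = 4, adjusted p = 0.0103, limma). The fold changes of the sets had a difference of -0.04 (95% interval -0.49 to 0.41, adjusted p = 0.942, limma).

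*Aldoc* (chr11:78322968-78327781, plus strand), which encodes the brain aldolase of astrocytes, was higher in every *Dbx2*-NSPC library than in every control. It was at 301.75, 211.27, 241.44 and 222.61 CPM in *GFP*-NSPC replicates 1 to 4 and at 455.91, 471.95, 422.02 and 371.36 CPM in the matching *Dbx2*-NSPCs. The level in replicates 5 to 8 was 167.90, 180.66, 164.61 and 169.84 CPM in the controls and 712.76, 643.29, 654.61 and 762.38 CPM in the *Dbx2*-NSPCs. The log2 fold change was 1.42 ± 0.16 (n = 8, adjusted p = 5.11e-06, limma) over all samples, and the exact 2-sided permutation test gave p = 0.000155, the smallest p that 8 against 8 libraries allow. It was 0.82 ± 0.12 (n = 4, adjusted p = 0.000942, limma) in replicates 1 to 4 and 2.02 ± 0.07 (n = 4, adjusted p = 1.09e-09, limma) in replicates 5 to 8, and the difference of 1.19 ± 0.15 passed the test (adjusted p = 2.67e-06, limma). With 4 against 4 libraries the permutation test cannot go below 0.0286, which was its value for each of the non-overlapping genes within a set.

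*Aqp4*, the gene of the water channel of astrocyte endfeet, was low, with 5 to 50 reads in a library. It was at 11.28, 8.11, 5.86 and 5 CPM in *GFP*-NSPC replicates 1 to 4 and at 10.60, 15.18, 4.56 and 3.23 CPM in the matching *Dbx2*-NSPCs, which overlapped (log2 fold change -0.03 ± 0.44, n = 4, adjusted p = 0.976, limma). In replicates 5 to 8 it was at 8.87, 5.83, 1.71 and 4.11 CPM in the controls and at 11.62, 10.56, 11.74 and 11.48 CPM in the *Dbx2*-NSPCs. The groups did not overlap there and the log2 fold change was 1.26 ± 0.37 (n = 4, adjusted p = 0.0228, limma), a call lost when any of 3 single libraries was left out (adjusted p up to 0.0572, limma). The difference between the sets did not pass the threshold (1.28, 95% interval 0.09 to 2.48 before adjustment, adjusted p = 0.19, limma).

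*Fabp7* (chr10:57784881-57788450, plus strand) was lower in *Dbx2*-NSPCs. The controls were at 1058, 1081, 1021 and 1237 CPM in replicates 1 to 4 and at 1125, 1289, 1158 and 1066 CPM in replicates 5 to 8. The *Dbx2*-NSPCs were at 638, 822, 514 and 288 CPM in replicates 1 to 4 and at 690, 1101, 905 and 893 CPM in replicates 5 to 8. The *Dbx2*-NSPCs were below all controls of their set in replicates 1 to 4, whereas 1 library overlapped in replicates 5 to 8. The log2 fold change was -0.72 ± 0.19 (n = 8, adjusted p = 0.0149, limma) over all samples, -1.05 ± 0.24 (n = 4, adjusted p = 0.0117, limma) in replicates 1 to 4 and -0.39 ± 0.12 (n = 4, adjusted p = 0.0269, limma) in replicates 5 to 8. The last call was lost when any of 6 single libraries was left out (adjusted p up to 0.0924, limma).

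**Figure D2:**
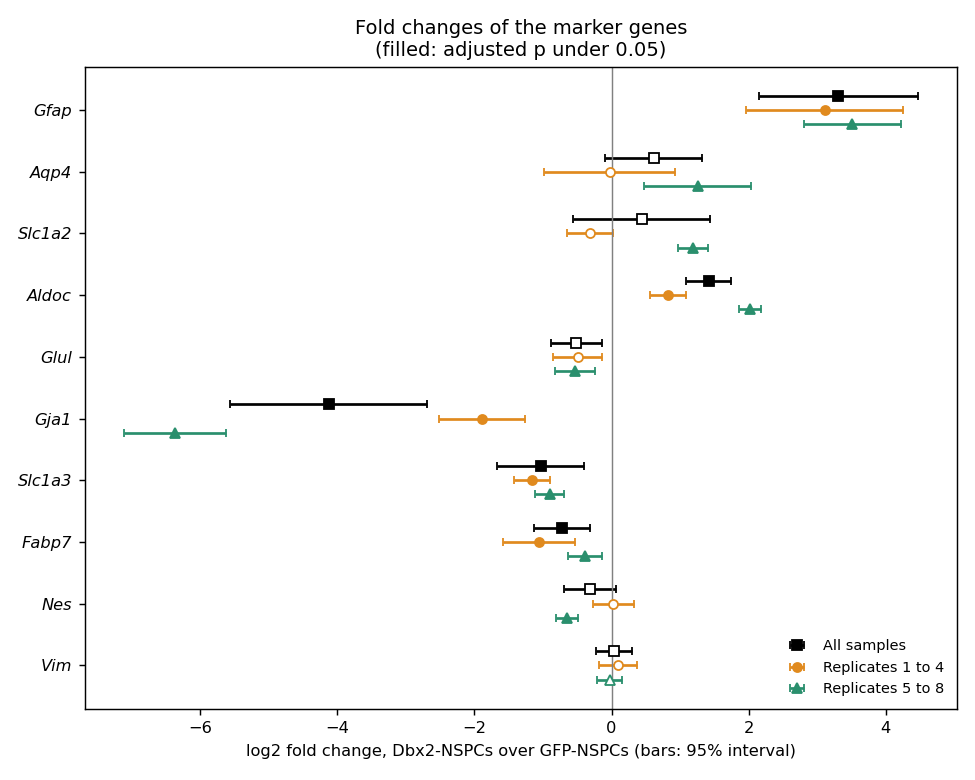
Log2 fold change of each marker gene in *Dbx2*-NSPCs over *GFP*-NSPCs (horizontal axis) over all samples (squares), in replicates 1 to 4 (circles) and in replicates 5 to 8 (triangles), with 95% intervals from limma; filled symbols have an adjusted p under 0.05. *Gja1* had the most negative fold changes and *Gfap* the most positive ones, and the intervals of the sets lay apart for *Slc1a2*, *Aldoc*, *Gja1* and *Nes*.

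The fold change thus differed between the sets for 4 of the 10 genes, *Slc1a2*, *Aldoc*, *Gja1* and *Nes*, and for 9.44% of all tested genes. Of all tested genes, groups did not overlap for 19.6% in replicates 1 to 4 and 24.8% in replicates 5 to 8, and of the marker genes this was so for 5 and 7 of the 10. The line of each sample is not in the labels, so that the set of replicates cannot be told apart here from the line, the day of the experiment or the level of *Dbx2* in the controls.

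Other genes of the same roles were then examined by lists of known genes, some of which hold genes of the 10 as stated. Among 40 tested astroglial genes outside the 10, 7 (17.5%) were higher and 6 (15%) lower in *Dbx2*-NSPCs over all samples. The shares of all tested genes were 8.03% and 7.78%. *Gpr37l1*, a receptor gene of glia, rose by a log2 fold change of 1.52 ± 0.19 (adjusted p = 2.24e-05, limma), *Cpe*, the carboxypeptidase E gene, by 0.86 (adjusted p = 0.00102, limma) and *Nfix*, a nuclear factor I gene, by 0.61 (adjusted p = 4.81e-05, limma). *Aldh1l1*, the folate enzyme gene used to mark astrocytes, fell from a mean of 306 ± 37.3 to 117 ± 18.3 CPM (SD, n = 4) in replicates 1 to 4 and from 177 ± 32.2 to 88.8 ± 23.5 CPM in replicates 5 to 8. The GABA transporter gene *Slc6a11* had a log2 fold change of -0.91 (adjusted p = 0.00228, limma) and the membrane glycoprotein gene *Gpm6b* one of -0.52 (adjusted p = 0.00688, limma).

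The sets of replicates differed in these astroglial genes. In replicates 1 to 4, 8 of the 40 were higher and 11 lower, and in replicates 5 to 8, 20 were higher and 6 lower. Of all tested genes, 8.19% were higher and 7.37% lower in replicates 1 to 4. In replicates 5 to 8 these shares were 11.5% and 11.7%. The difference of the fold changes passed the threshold for 18 of the 40 (45%, beside 9.44% of all tested genes), and in 17 of the 18 the fold change was greater in replicates 5 to 8. In this list 3 genes were called in both sets in opposite directions and 11 in the same direction. Of all tested genes, 1.47% and 6.49% did so. The following genes were named after their values were seen. *Kcnj10*, which encodes the astroglial potassium channel Kir4.1, had means of 0.278 CPM in the controls and 13.9 CPM in the *Dbx2*-NSPCs of replicates 5 to 8, but of 72.9 and 48.2 CPM in replicates 1 to 4 (difference of the log2 fold changes 4.86, adjusted p = 8.80e-08, limma). The control mean of 0.278 CPM was below the limit of detection, so that the size of this difference depends on the 0.5 CPM added before taking logs. *Apoe*, the gene of the main lipid carrier of astrocytes, went from a mean of 2189 to 800 CPM in replicates 1 to 4 and from 216 to 379 CPM in replicates 5 to 8 (difference 2.36, adjusted p = 1.17e-05, limma). *Clu*, the clusterin gene, was higher in both sets, with means of 19.1 and 88.2 CPM in replicates 1 to 4 and of 2.29 and 26.3 CPM in replicates 5 to 8. The exception to the direction of the 18 was *Sparcl1*, a secreted matrix protein gene, with log2 fold changes of 3.54 in replicates 1 to 4 and 0.01 in replicates 5 to 8.

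**Figure D3:**
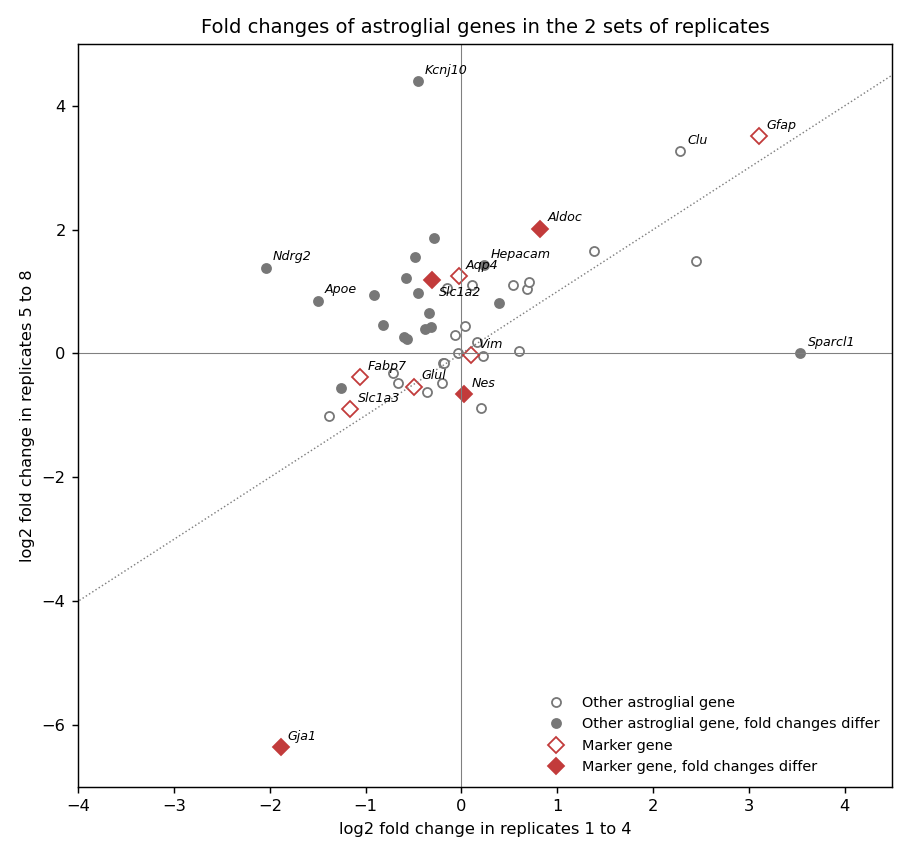
Log2 fold change in *Dbx2*-NSPCs over *GFP*-NSPCs in replicates 1 to 4 (horizontal axis) and in replicates 5 to 8 (vertical axis) for the 10 marker genes (diamonds) and 40 other astroglial genes (circles); filled symbols mark genes whose fold changes differed between the sets at an adjusted p under 0.05, and the dotted line marks equal fold changes. Most filled circles lie above the line, as 17 of 18 did, and *Gja1* lies far below it.

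Of 20 tested genes of neural stem cells and radial glia, *Slc1a3* included, none was higher and 8 were lower over all samples, *Slc1a3* among them. These were 0% and 40% of the list, beside 8.03% and 7.78% of all tested genes. With the replicate number fitted as a block, 1 was higher and 9 were lower. That fit called 2723 of the 12533 tested genes, beside 1982 in the main fit. This rise over all genes applies to each count with the block below. *Pdpn*, the podoplanin gene, fell by 1.63 on the log2 scale (adjusted p = 0.000163, limma), *Itga6*, the gene of integrin alpha 6, by 0.78 (adjusted p = 0.00246, limma) and the transcription factor gene *Pax6* by 0.74 (adjusted p = 0.00025, limma). In *Pax6* the mean went from 41.7 ± 6.87 to 24.6 ± 5.44 CPM in replicates 1 to 4 and from 44.2 ± 2.75 to 26.6 ± 3.91 CPM in replicates 5 to 8. In each set 8 of the 20 were lower, while 0 were higher in replicates 1 to 4 and 4 in replicates 5 to 8. Of all tested genes, 7.37% were lower in replicates 1 to 4 and 11.7% in replicates 5 to 8. The shares called higher were 8.19% and 11.5%.

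Of 10 tested intermediate filament genes, *Gfap*, *Nes* and *Vim* included, 3 (30%) were higher and 3 (30%) lower. The shares of all tested genes were 8.03% and 7.78%. The lamin A gene *Lmna* rose by 1.08 ± 0.14 on the log2 scale (adjusted p = 2.37e-05, limma), whereas the lamin B genes *Lmnb2* (-1.04, adjusted p = 3.62e-05) and *Lmnb1* (-0.49, adjusted p = 0.0194) fell in the limma fit. *Synm*, the synemin gene, was called higher at a mean of at most 4.497 CPM in any group of 4 libraries, and *Ina*, the alpha-internexin gene of neurons, was called lower (-0.95, adjusted p = 0.00207, limma).

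Among 17 tested genes of glutamate and glutamine handling, 2 (11.8%) were higher and 3 (17.6%) lower, beside 8.03% and 7.78% of all tested genes. *Slc7a11*, the cystine-glutamate exchanger gene, fell by 2.87 ± 0.34 on the log2 scale (adjusted p = 8.80e-06, limma), from a mean of 14.9 to 0.815 CPM in replicates 1 to 4 and from 17.8 to 3.44 CPM in replicates 5 to 8. The mean of 0.815 CPM was below the limit of detection. *Glud1*, the glutamate dehydrogenase gene, fell by 1.195 (adjusted p = 0.000194, limma) and the neutral amino acid transporter gene *Slc1a4* by 0.47 (adjusted p = 0.012, limma). The glutamine transporter genes *Slc38a3* (1.18, adjusted p = 5.70e-05, limma) and *Slc38a1* (0.82, adjusted p = 0.00067, limma) rose.

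Of 6 tested gap junction and pannexin genes, *Gja1* was called lower and *Tjp1*, the gene of the junction scaffold ZO-1, higher (0.66, adjusted p = 0.000178, limma), and 4 were called in the fit with the block. Of 15 tested aquaporin and endfoot genes, *Aqp4* included, 2 (13.3%) were higher and 2 (13.3%) lower, and 7 were called with the block. In the main fit 8.03% of all tested genes were called higher and 7.78% lower. The sarcoglycan gene *Sgce* fell by 2.27 on the log2 scale (adjusted p = 0.000655, limma) and the dystrophin gene *Dmd* by 0.56 (adjusted p = 0.00527, limma), while *Sgcb* (0.55, adjusted p = 0.000641, limma) and *Sspn*, the sarcospan gene (0.66, adjusted p = 0.00812, limma), rose. *Fabp5*, a fatty acid binding protein gene related to *Fabp7*, was not called (log2 fold change -0.22, adjusted p = 0.283, limma). *Aldoa*, the other tested aldolase, had a log2 fold change of -0.03 (adjusted p = 0.807, limma).

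Astrocytes raise reactive astrocyte genes after injury or inflammation. Of 31 such genes 19 were tested, and 6 (31.6%) were called higher and 1 (5.26%) lower over all samples. The shares of all tested genes were 8.03% and 7.78%. In replicates 1 to 4, 8 (42.1%) were higher and 1 (5.26%) lower, beside 8.19% and 7.37% of all tested genes. In replicates 5 to 8, 5 (26.3%) were higher and 2 (10.5%) lower, beside 11.5% and 11.7%. *S100a10*, named after its values were seen, was called in opposite directions in the sets (log2 fold changes 1.06 and -2.11). In the list 9 genes never exceeded 3 reads, and *Lcn2*, *Steap4* and *S1pr3* did not pass the filter. *Serpina3n*, a protease inhibitor gene, was at 0 reads in all 4 controls of replicates 1 to 4 and at 1 read in total in those of replicates 5 to 8, against 200 and 162 reads in the *Dbx2*-NSPCs of the sets. For replicates 5 to 8 this was a ratio per total reads of 150.3 with an exact 95% counting interval of 26.6 to 5972. *Cd109* rose by 2.59 ± 0.32 (adjusted p = 1.66e-05, limma) and the hyaluronan receptor gene *Cd44* by 0.82 (adjusted p = 0.00496, limma), and *B3gnt5* fell by 0.90 (adjusted p = 0.0398, limma).

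**Figure D4:**
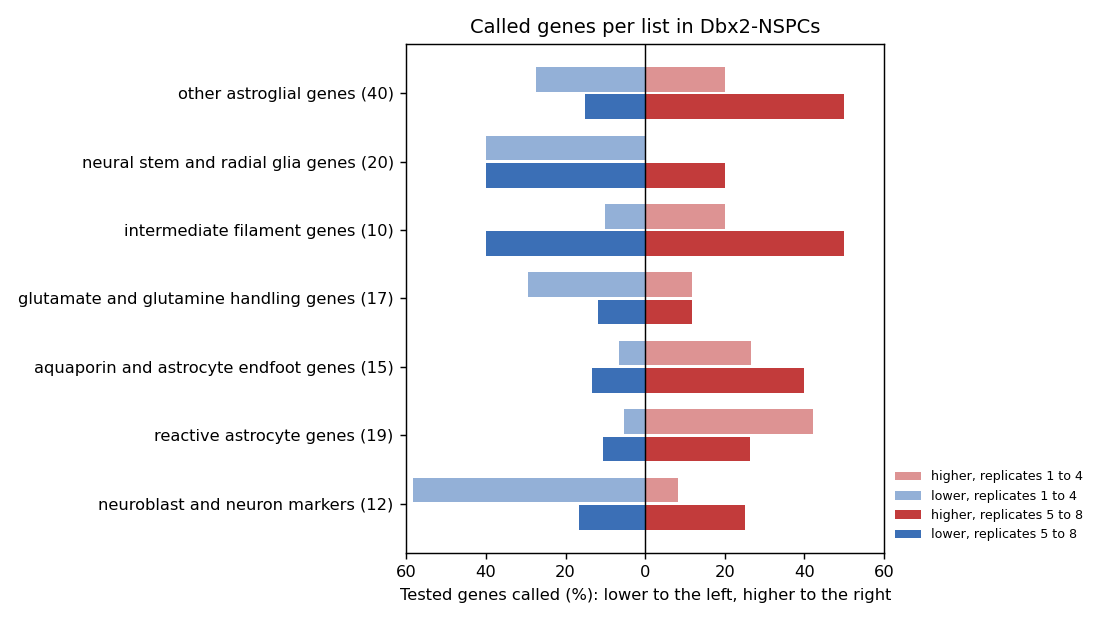
Share of the tested genes of each list that was called higher (red, to the right) or lower (blue, to the left) in *Dbx2*-NSPCs, in replicates 1 to 4 (pale) and 5 to 8 (dark), for the lists with at least 10 tested genes (number in brackets). The astroglial list shifted from 20% higher and 27.5% lower in replicates 1 to 4 to 50% higher and 15% lower in replicates 5 to 8. For all tested genes these shares were 8.19% and 7.37%, and 11.5% and 11.7%.

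Markers of other cell types were measured in the same libraries, in which 8.03% of all tested genes were called higher and 7.78% lower over all samples. None of 12 microglial markers passed the filter, their summed level was 0.4 to 3.06 CPM in *GFP*-NSPCs and 0 to 3.59 CPM in *Dbx2*-NSPCs, and *Tmem119*, *Aif1*, *Tyrobp* and *C1qc* were at 0 in every library. Of 11 endothelial and mural markers 4 were tested and 1 was higher (*Flt1*), with a summed level of 0.67 to 12.6 CPM in *GFP*-NSPCs and 8.79 to 21.4 CPM in *Dbx2*-NSPCs, and the defining genes *Cldn5* and *Cdh5* were at 0 throughout. Of 8 ependymal markers 6 were tested and 2 were higher (*Ccdc153* and *Rarres2*), with a summed level of 13.3 to 34.5 CPM and 29.4 to 54.6 CPM in the groups, and *Pifo* and *Tmem212* were at 0. Of 8 fibroblast markers 3 were tested and 1 was higher (*Pdgfrl*; 3 were called with the replicate block), with a summed level of 11.6 to 35.0 CPM and 18.9 to 31.8 CPM. Of 12 tested neuroblast and neuron markers only *Map2* was called, lower by 0.47 on the log2 scale (adjusted p = 0.00557, limma; 2 were called with the block), with summed levels of 974 to 1330 CPM and 801 to 953 CPM. Most of these sums was *Map2*, with means of 1053 and 751 CPM, and *Dlx5* and *Stmn2* were at 0. Within replicates 1 to 4, 7 of these 12 were lower and 1 higher, beside 7.37% and 8.19% of all tested genes. Within replicates 5 to 8, 2 were lower and 3 higher, beside 11.7% and 11.5%. In the sets 2 of these genes were called in opposite directions, beside 1.47% of all tested genes. They were *Dcx* (log2 fold changes -2.87 and 3.02) and *Rbfox3* (-1.96 and 2.90), named after their values were seen. Their means were at most 9.85 CPM in any group of 4 libraries. Of 7 tested oligodendrocyte lineage markers *Cnp* was higher (0.81, adjusted p = 0.000886, limma), with summed levels of 2505 to 3267 CPM and 2423 to 3053 CPM. Most of these sums was *Olig1* and *Olig2*, named after their values were seen, with means of 1399 and 1421 CPM in *GFP*-NSPCs. In the same list *Mog* was at 0, and *Sox10*, *Mbp*, *Mag* and *Gpr17* did not pass the filter. The part of these markers in the differences of the astroglial genes was not tested.

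The genes whose levels over the 16 libraries were most like those of *Gfap* were *Cpe* (Pearson's r = 0.96), *Htra3*, a secreted protease gene (0.95), and *S100a4*, a calcium binding protein gene (0.95), out of 8651 candidates whose mean level reached 10 CPM. For *Nes* they were the muscarinic receptor gene *Chrm3* (0.97), the RNA helicase gene *Ddx21* (0.95) and *Bclaf1* (0.95). These values describe libraries that fall into 4 clusters by transgene and set, and they carry no test.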

How the data were processed

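Total RNA (100 ng) of 16 non-adherent NSPC cultures had been sequenced with a 3′ mRNA library kit (QuantSeq) as single-end reads of 101 bases. Per the labels and the study's methods, the authors used FastQC 0.11.8, STAR 2.5.0a, GRCm38 and edgeR 3.36, and the deposited table holds normalised values in CPM (read counts scaled to library depth) for 30386 genes. Whether counting used strand is not given in the sources used here. *Gfap*, *Aqp4*, *Slc1a2* and *Glul* overlap a gene on the other strand, and *Slc1a3* overlaps *Gm37310* on its own strand (GENCODE M21). All sample columns were used, and 12637 genes were at 0 throughout.

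The CPM values were whole multiples of 1 read for at least 99.99% of values in each library (within 0.05 reads), which gave the depth. The 12533 genes above 1 CPM in 4 or more libraries were tested with limma 3.58.1 in R 4.3.3 on log2(CPM + 0.5), with a trended empirical Bayes fit and Benjamini-Hochberg adjustment over all tested genes. Fold changes on this scale understate the change of low genes. The groups were compared over all samples, within replicates 1 to 4 and 5 to 8, and by the difference between these sets. Single genes were also tested by exact 2-sided permutation in Python 3.11.15 with numpy 2.4.6. The fits were tested on simulated data. Alternatives were other pseudocounts (0.1 and 2 CPM), filters, scalings and covariates, leaving out each library, and count tests on the recovered reads (edgeR 4.0.16; DESeq2 1.42.0). edgeR called 1928 genes over all samples and limma 1982.

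Replicate numbers come from the sample labels. Same-numbered samples deviated together from their group means in all 8 pairs (r = 0.15 to 0.30), but these deviations include the difference between the sets. Within the sets the correlations were only -0.01 to 0.12, with 1 of 8 over 0.1. Their mean was 0.04, beside -0.01 for other samples of the same set. Only 1 *GFP*-NSPC sample was closest to its own number. Whether the numbers pair the samples is thus not settled. The main fits did not pair them, and the replicate block was an alternative fit. The study describes separate experiments, but the labels do not say which samples share a line, so that p-values measure the spread between these samples. Replicates were cultures, and intervals on reads cover counting error only.

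The members and gene lists were chosen with earlier results of these data known. The genes named were the 10 markers, *Dbx2*, every gene of lists of at most 7 genes, for longer lists the 3 with the smallest adjusted p in each direction over all samples, and the 3 most like *Gfap* and *Nes*; others are said to be chosen after their values were seen. A result that this rule would name is not reported here. Upstream sequences came from RefSeq (GRCm38.p6), which matched 9 of the 10 markers, and motifs were searched in the 250 bases before the start.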

Additional observations from a re-analysis of the deposited data

Results flagged for a closer look

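The fold change of 4 marker genes differed between replicates 1 to 4 and replicates 5 to 8 by the limma test of the difference. On the log2 scale the fold change in replicates 5 to 8 less that in replicates 1 to 4 was 1.495 for *Slc1a2* (adjusted p = 2.67e-06), 1.19 for *Aldoc* (adjusted p = 2.67e-06), -4.47 for *Gja1* (adjusted p = 1.63e-07) and -0.68 for *Nes* (adjusted p = 0.00488).

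In 5 of 60 groups of libraries examined, 1 library lay far from the others by Dixon's 95% criterion, which chance meets in about 1 of 20 groups. *Gfap* was at 2.77 CPM in *GFP*-NSPC replicate 5, where the next control of replicates 5 to 8 was at 1.02 CPM. *Slc1a2* was at 357.67 CPM in *Dbx2*-NSPC replicate 1, where the next library of its set was at 240.40 CPM. *Gja1* was at 53.98 CPM in *GFP*-NSPC replicate 6, below 64.15 CPM in the next library. *Nes* was at 454.03 CPM in *GFP*-NSPC replicate 1, below 640.91 CPM in the next library. *Vim* was at 1956.52 CPM in *GFP*-NSPC replicate 7, below 2157.48 CPM in the next library.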

How the results depend on the processing

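The number of marker genes called was 5 over all samples and 5 to 7 under the other settings, 5 in replicates 1 to 4 (4 to 6), 9 in replicates 5 to 8 (6 to 9) and 4 for the difference between the sets (4 under each setting). Leaving out single libraries gave 4 to 5, 5 to 7, 7 to 9 and 4 to 5. With the replicate block, 6 genes were called over all samples, as *Glul* passed (adjusted p = 0.000898), and in replicates 1 to 4 *Glul* also passed (adjusted p = 0.036); the block changed no other call of a marker gene. With the set of replicates as a covariate, *Glul* (adjusted p = 0.00215, limma) and *Nes* (-0.31, adjusted p = 0.0405, limma) passed over all samples. In edgeR with the same covariate, a setting chosen after seeing the data, *Glul* passed (adjusted p = 0.00345, edgeR) but *Nes* did not. Over all genes, limma called 1982 without and 3034 with this covariate, and in replicates 1 to 4 it called 1950 with and 1299 without the filter on low values. Without a filter on low values, *Fabp7* in both sets, *Glul* and *Aqp4* in replicates 5 to 8 were no longer called (adjusted p = 0.0972 to 0.147), and the cause was not tested. With the spread shared over all 16 samples, *Fabp7* in replicates 5 to 8 was not called (adjusted p = 0.171).

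Signs turned for 6 values, none of them called. The *Gfap* difference between the sets was -0.11 with a pseudocount of 2 CPM and -0.10 to 0.94 without single libraries, the lowest without *GFP*-NSPC replicate 1. *Aqp4* in replicates 1 to 4 was 0.0019 with a pseudocount of 2 CPM, 0.21 in edgeR, 0.19 in DESeq2 and -0.38 to 0.31 without single libraries. *Vim* in replicates 5 to 8 was 0.0011 in DESeq2 and -0.090 to 0.021 without single libraries, and over all samples -0.017 to 0.089. Without single libraries the *Glul* difference was -0.20 to 0.10 and *Nes* in replicates 1 to 4 was -0.11 to 0.10. The cause was not tested. Depth limits *Gfap* in the controls and *Gja1* in the *Dbx2*-NSPCs of replicates 5 to 8, which held few reads.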

Other observations

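The neighbours of all 10 marker genes were counted after the data were seen, and the 2 windows with the most one-sided calls in replicates 5 to 8 are given. Of all tested genes, 11.5% were called higher and 11.7% lower in that set. Other windows were mixed there, with 4 higher and 3 lower of 37 genes around *Gfap* and 4 higher and 3 lower of 41 around *Aldoc*. Of 9 tested genes within 1 Mb of *Glul*, which itself was lower in *Dbx2*-NSPCs of replicates 5 to 8, 5 were higher there and none lower. Of 8 tested genes within 1 Mb of *Fabp7*, 5 were lower in replicates 5 to 8 and none higher, while none was called in replicates 1 to 4. *Gja1* and *Fabp7* lie 1.38 Mb apart on chromosome 10.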
